A study of Homo sapiens with 8 samples.

Results

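The 2 untreated libraries of U87MG cells, of 8 libraries in the series, were described here as the baseline transcriptome of the line. They were chosen by their labels, which give no treatment and number them as replicates 1 and 2; all 23368 gene rows of both were used. U87MG is an established human glioblastoma line, here grown in DMEM with serum and antibiotics. The other 6 libraries received the antiandrogen enzalutamide for 4, 24 or 48 h and were not analysed here. The labels name no vehicle and no time for the untreated cells, do not say whether the libraries came from separate cultures, and mention a harvest after differentiation that the growth protocol does not explain. An SD over these libraries (n = 2 throughout) may therefore be technical.

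Glioblastoma arises in the brain and is classed with the astrocytic tumours, whose cells commonly carry the glial filament protein GFAP. Tumours with a mesenchymal profile express vimentin, fibronectin, CD44 and secreted matrix proteins. U87MG is an adherent line that is known to lack the CDKN2A locus. Cells of this kind build matrix, attach to it through integrins, remodel it with metalloproteinases and the plasminogen system, and release cytokines.

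The libraries held 33025426 and 32298781 counts, and 17700 and 17751 rows had at least 1 read. Levels are given as CPM, the share of all reads of a library scaled to a fixed total, with replicate 1 before replicate 2. CPM ranks genes by their share of reads, which grows with transcript length. Levels of different genes are compared per length, as TPM, the share after division by transcript length, for the 20046 rows with a transcript length, which held 98.9% of the counts. A gene was called present at 1 CPM or more in both libraries. A count of 0 allows up to 3 counts, which is 0.0908 CPM in replicate 1 and 0.0929 CPM in replicate 2. By this rule 12594 rows were present (53.9%), 5960 had some reads but were not present, and 4814 had no reads (20.6%). Of the rows that are protein-coding genes in GENCODE, 11799 of 18780 were present (62.8%). All rows include microRNA and small nucleolar RNA genes, few of them present. The protein-coding share is thus the closer background for lists of protein-coding genes. Intervals and floors cover counting error only.

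Vimentin held the largest share of reads. The other genes among the first 10 mixed products of mesenchymal cells, such as fibronectin, with actins, GAPDH, ferritin and a translation factor. VIM, the intermediate filament protein of mesenchymal cells, stood first with 8462 and 8682 CPM. TFPI2, an inhibitor of serine proteases in the matrix, followed with 6076 and 5729 CPM, and the cytoplasmic actin gene ACTG1 with 5159.9 and 4941 CPM. The libraries differed by less than 10% in each of these genes. GAPDH, a glycolytic enzyme, had 4918 and 4791 CPM, and TGFBI, a matrix protein induced by TGF-beta, had 4183 and 4351 CPM. FTH1, the heavy chain of the iron store ferritin, had 4515 and 3988 CPM and was lower in replicate 2. FN1, fibronectin, had 3883 and 4550.5 CPM and was higher in replicate 2. EEF2, the translocation factor of translation, and ACTB, the other cytoplasmic actin, were also among the first 10 genes.

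These 10 genes held 4.96 ± 0.06% of all counts. The first 100 held 19.7 ± 0.3% and the first 1000 held 50.6 ± 0.5%. Reads were thus spread over many genes: 969 genes were needed to reach 50% of the counts, and the 88 genes above 1000 CPM on average held 18.5%. Among the genes ranked 11 to 30 were further metabolic enzymes (PKM2, ENO1, ALDH1A3, NAMPT, SOD2), matrix and adhesion genes (MMP2, TNC, COL6A3, ITGB1), the actin crosslinker FLNA, the secretory pathway chaperones CALU and CALR, and the cytokines IL1B and IL8. B2M, the light chain of class I histocompatibility molecules, had 2452 and 2359 CPM. EEF1A1, FTL and LGALS1 also lay in this range, together with HFM1, a helicase gene known for its part in meiosis. HFM1 had 2755 and 2007 CPM.

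Per length, short transcripts moved up. VIM kept the first place at 10782 ± 390.1 TPM. LGALS1, the secreted lectin galectin-1, was next at 9294 ± 297 TPM, and TMSB10, a small actin-binding thymosin, reached 9218 ± 134 TPM. These neighbours in the order did not differ beyond their spread, with 9504 and 9084 TPM for LGALS1 and 9313 and 9124 TPM for TMSB10. GAPDH had 8638 ± 3.47 TPM, FTH1 8121 ± 566 TPM and FTL, the ferritin light chain, 6780.4 ± 436 TPM. S100A6, a calcium-binding protein of growing fibroblasts, had 6235 ± 367 TPM, and TIMP1, an inhibitor of metalloproteinases, had 4511 ± 311 TPM. FN1, whose transcript is long, fell from rank 8 by CPM to rank 78 by TPM, at 1251 ± 162 TPM. Of the first 30 genes by CPM, 18 were also among the first 30 by TPM.

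**Figure D1:**
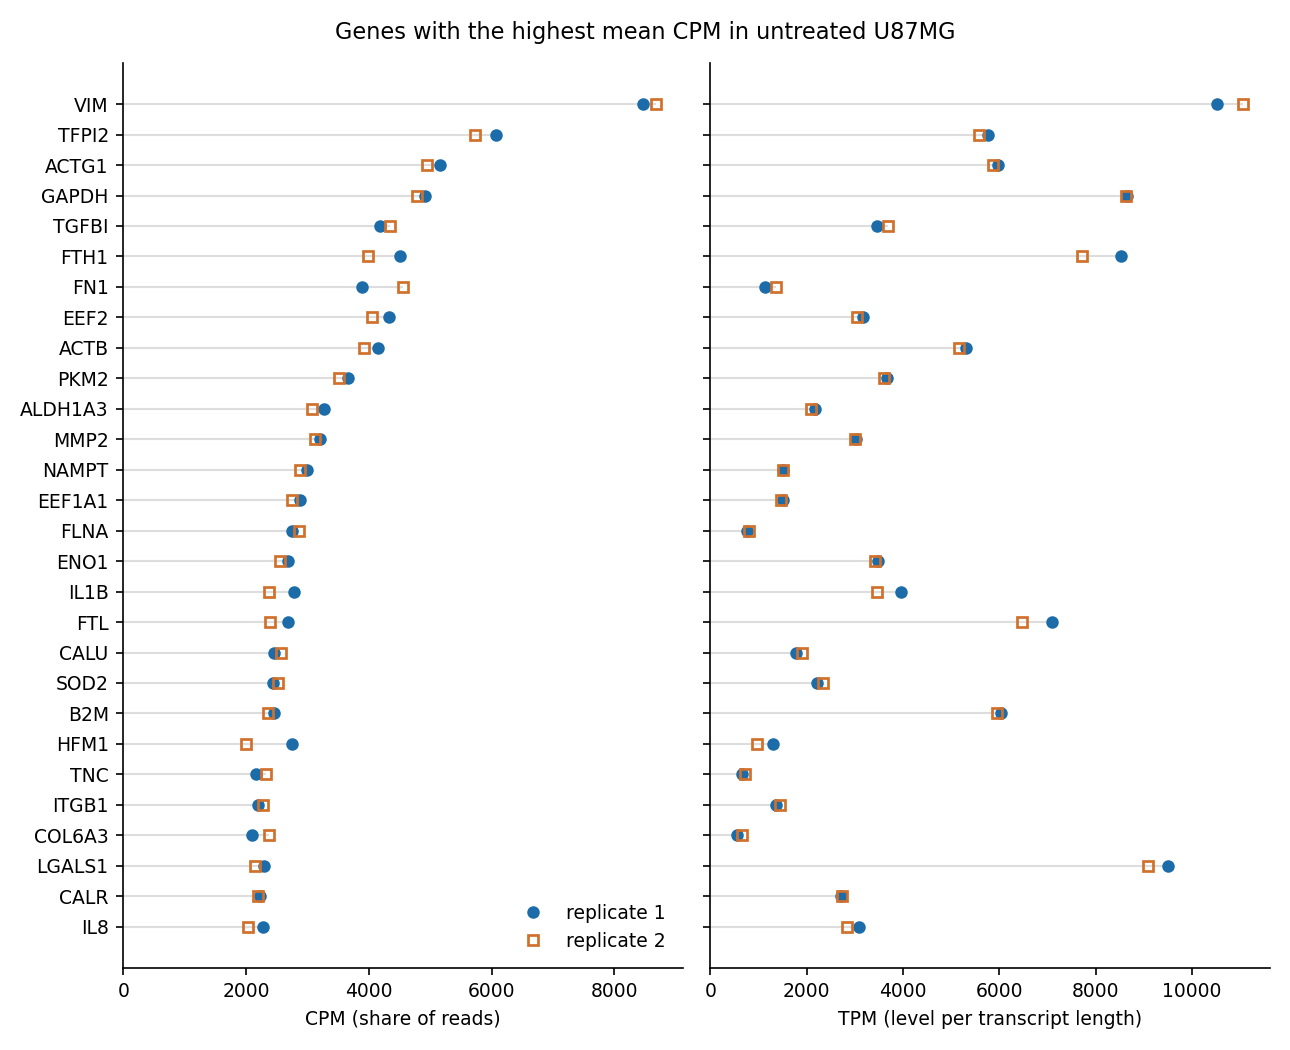
CPM (left) and TPM (right), both on linear axes from 0, of 28 of the 30 genes with the highest mean CPM, in replicate 1 (filled circles) and replicate 2 (open squares). VIM leads on both scales, while LGALS1, at rank 28 by CPM, stands at rank 2 by TPM, and HFM1 shows the widest gap in CPM between the libraries.

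Housekeeping families were led by ribosomal protein genes, which held the largest share of the TPM total among all families and lists counted. The 89 rows of ribosomal protein genes held 2.71% and 2.47% of the counts, or 6.44 ± 0.326% of the TPM total. Of them 81 were present (91.0%), against 53.9% of all rows and 62.8% of protein-coding rows. RPL21, which has near-identical copies in the genome, had no reads in either library, and its level is uncertain. Glycolysis and glucose transporter genes held 1.95 ± 0.0528% of the counts, led by GAPDH, PKM2 and ENO1. Intermediate filament genes other than keratins held 0.957 ± 0.0153%, most of it VIM and the rest mainly the nuclear lamins LMNA and LMNB2. Actin genes held 0.913 ± 0.0314%, elongation factor genes 0.817 ± 0.0366%, proteasome genes 0.713 ± 0.0141% and ferritin genes 0.679 ± 0.0581%. S100, annexin and metallothionein genes were each led by 1 member: S100A6 at 6235 ± 367 TPM, ANXA1 at 2656 ± 62.3 TPM and MT2A at 3195 ± 108 TPM. Of 56 keratin genes, 10 were present (17.9%, against 62.8% of protein-coding rows), with KRT10 highest at 25.1 and 25.4 CPM. None of 393 olfactory receptor genes was present.

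Markers of the brain cell lineages were divided, with some present and others at or near 0. Of 12 astrocyte markers, 4 were present (33.3%, against 53.9% of all rows and 62.8% of protein-coding rows). GFAP, the filament that defines astrocytes, had 8 and 22 reads, or 0.242 and 0.681 CPM. Per length it had 0.268 and 0.772 TPM, against 10506 and 11058 TPM of VIM. AQP4, the water channel of astrocyte endfeet, had no reads, S100B had 2 and 3 reads, ALDH1L1 2 and 3, and GJB6, a glial gap junction gene, had none. SLC1A2, the main glutamate transporter of astrocytes, had 34 and 30 reads, or 1.03 and 0.929 CPM. The present members are also found outside astrocytes: GJA1, the gap junction protein connexin 43, had 363 and 376 CPM, GLUL, glutamine synthetase, 128 and 129 CPM, SLC1A3, a glutamate transporter, 24.3 and 26.7 CPM, and SOX9 12.2 and 12.9 CPM. The list was thus divided, with GFAP, AQP4, S100B and ALDH1L1 at or near 0 in the labelled glioblastoma line and GJA1 and GLUL above 100 CPM. In a bulk sample, few cells with a gene and little of its RNA per cell cannot be told apart.

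Neuronal markers were present in a like share, with 5 of 15 present (33.3%, against 62.8% of protein-coding rows). TUBB3, a tubulin of neurons that tumour lines often express, had 129.6 and 129 CPM, and SNAP25, a protein of vesicle fusion, 33.7 and 34.0 CPM. MAP2, GAD1 and SYT1 lay between 4 and 12 CPM. RBFOX3, the nuclear antigen of mature neurons, had 0.424 and 0.372 CPM, STMN2 1 and 2 reads, DCX 3 and 1 reads, and ELAVL4 none. Of 7 oligodendrocyte markers, CNP at 104 and 101 CPM and MBP at 2.12 and 2.32 CPM were present (28.6%). MOG and OPALIN had no reads. Of 7 genes of oligodendrocyte precursors, CSPG4 (103 and 111 CPM), PDGFRA (4.21 and 4.71 CPM) and OLIG2 (2.85 and 1.58 CPM) were present (42.9%). OLIG1, GPR17 and NKX2-2 of the same list had no reads, and SOX10 had 1 read in each library, so this list was divided too.

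Markers of other tissues were at or near 0, with some exceptions. The share present was 25% of immune and of endothelial genes, 10% of epithelial and 0% of erythroid ones, against 62.8% of protein-coding rows. Among 12 genes of microglia and immune cells, CD68, a lysosomal glycoprotein, had 761 and 708 CPM and CSF1R, the receptor of colony-stimulating factor 1, 255 and 242 CPM. TMEM119, a marker of microglia, was also present with 82 and 65 reads, or 2.48 and 2.01 CPM. Other defining genes of those cells were at or near 0: PTPRC had 1 and 0 reads, ITGAM 4 and 5, CD14 3 and 1, and AIF1, TYROBP, P2RY12 and CD3E had none. The summed level of the list was 1018 and 952 CPM, nearly all in CD68 and CSF1R. Of 8 endothelial genes, KDR (17.8 and 18.8 CPM) and TEK (1.42 and 1.24 CPM) were present, and CDH5, PECAM1, CLDN5 and VWF stayed below 1 CPM. Only KRT8 of 10 epithelial genes was present, at 8.39 and 8.82 CPM. CLDN4 (0.969 and 1.58 CPM) and CLDN7 (1.15 and 0.774 CPM) lay on both sides of the threshold. CDH1, the epithelial cadherin, had 3 and 10 reads and EPCAM 7 and 2. None of 5 erythroid genes was present, and HBB, HBA1 and HBA2 had no reads.

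Mesenchymal genes contrasted with these lists, since 21 of 23 were present (91.3%), against 62.8% of protein-coding rows. All these lists were chosen with earlier results of these data known. The mesenchymal list holds VIM, TGFBI and FN1 of the first 10 genes, so a high share was partly built in. The mesenchymal genes held 2.76 ± 0.0866% of all counts, or 2.27 ± 0.0849% of the TPM total, and their median was 112 CPM. Beside VIM, TGFBI, FN1 and TNC, the hyaluronan receptor CD44 had 2043 and 2023 CPM, the collagen crosslinker LOX 451 and 516 CPM and the transcription factor ZEB2 181 and 192 CPM. CHI3L1, a secreted glycoprotein used as a marker of mesenchymal glioblastoma, had 109 and 95.6 CPM. The members below the threshold were SNAI1 with 24 and 22 reads and TWIST2 with 33 and 26 reads. Of 12 mural and fibroblast genes, 9 were present (75%, against 62.8% of protein-coding rows). Among them were ACTA2 at 67.3 ± 0.671 TPM, DCN at 41.7 ± 2.26 TPM, FAP at 32.5 ± 2.70 TPM and PDGFRB at 29.4 ± 0.476 TPM. THY1, a surface marker of fibroblasts, had 3 and 3 reads, DES 2 and 3, and CNN1 55 and 29.

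**Figure D2:**
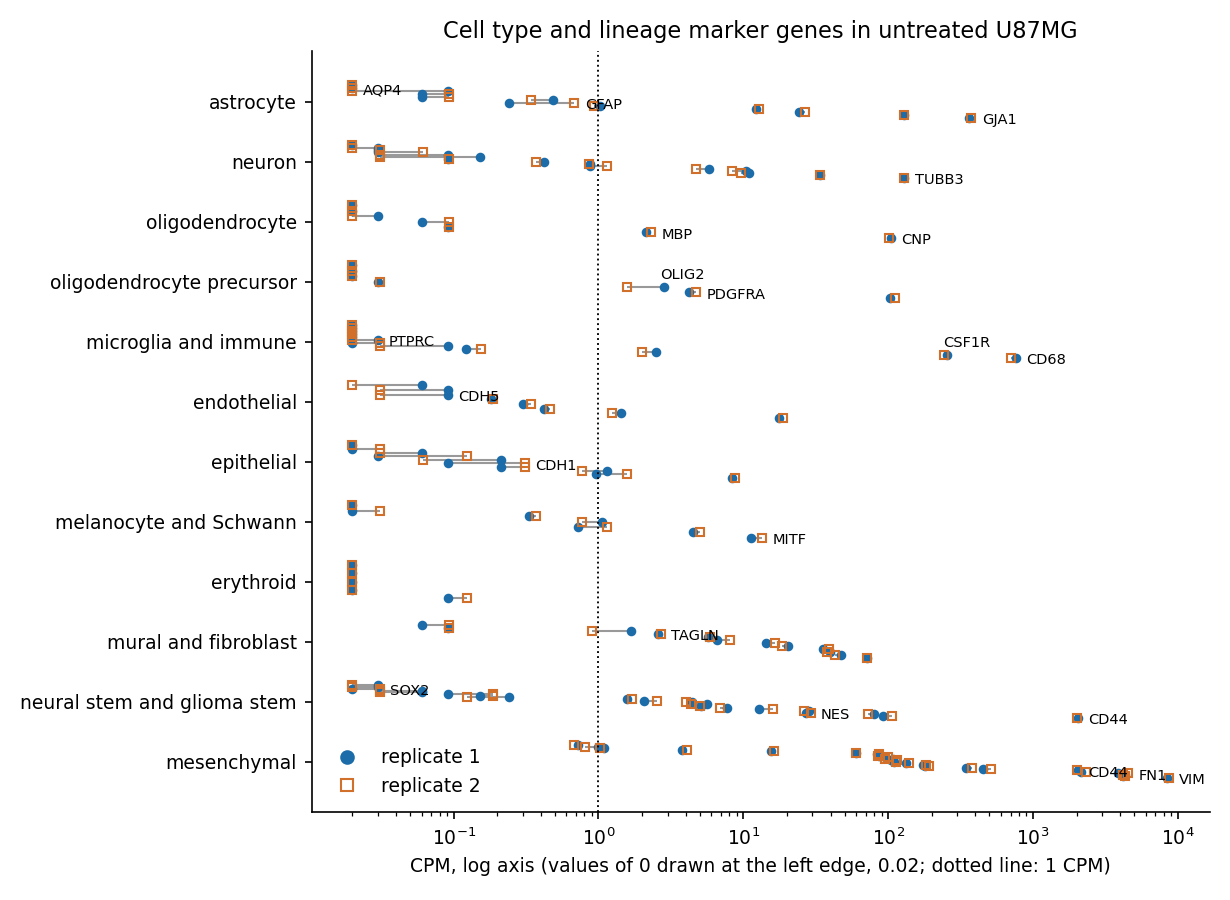
CPM on a log axis of each marker gene in replicate 1 (filled circles) and replicate 2 (open squares), by list, with a line joining the libraries, the dotted line at 1 CPM and values of 0 drawn at the left edge. Most markers of glial, immune, endothelial, epithelial and erythroid cells lie below 1 CPM, whereas 21 of 23 mesenchymal genes lie above it in both libraries.

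Of 20 genes tied to neural and glioma stem cells, 12 were present (60%, against 53.9% of all rows and 62.8% of protein-coding rows). CD44 led at 2084 ± 23.5 TPM, followed by the differentiation inhibitor ID1 at 192 and 227 TPM, MYC at 78.6 and 73.2 TPM and the histone methyltransferase EZH2 at 25.6 and 24.4 TPM. NES, the filament nestin of neural progenitors, had 26.9 and 29.2 CPM, and PAX6, a transcription factor of neural progenitors, 12.8 and 15.9 CPM. L1CAM had 5.57 and 4.37 CPM and FUT4, which makes the antigen CD15, 4.45 and 4.02 CPM. Other members of the list were at or near 0: SOX2 had 0 and 1 reads, MSI1 1 and 0, PROM1, which encodes CD133, 5 and 6, FABP7 3 and 6, NANOG 1 and 0 and POU5F1 8 and 4. Proneural genes showed 3 of 8 present (37.5%) and classical genes 7 of 9 (77.8%). Per length, EGFR was the highest classical gene at 145 and 166 TPM, above NOTCH3 at 70.4 and 67.8 TPM. By reads the order was reversed, with 160 and 178 CPM for EGFR and 263 and 247 CPM for NOTCH3. Their order thus depends on the median transcript length used for each gene, and it is uncertain.

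Of 30 genes that are altered in gliomas, 21 were present (70%, against 62.8% of protein-coding rows). MET, a receptor kinase, had 347 and 382 CPM, CDK4, the kinase that drives entry into the cell cycle, 260.3 and 255 CPM and MDM2, the antagonist of p53, 94.4 and 104 CPM. The tumour suppressor genes NF1 (103 and 113 CPM), RB1 (64.1 and 67.1 CPM) and the chromatin factor ATRX (67.1 and 83.7 CPM) were all present, and a read count says nothing about mutations in them. IDH1 had 85.1 and 84.2 CPM. The cell-cycle inhibitor genes stood apart from them: CDKN2A had 1 and 0 reads, and CDKN2B and CDKN2C had none in either library. MTAP, the neighbour of CDKN2A, also had no reads. Of the related inhibitors, CDKN2D was present at 13.3 and 13.0 CPM, CDKN1A at 241 and 237 CPM and CDKN1B at 33.7 and 34.6 CPM. Their counterpart CCND1, cyclin D1, had 1244 and 1278 CPM, whereas CCND2 had 0 and 2 reads. MGMT, the enzyme that repairs alkylated guanine, had 1 and 3 reads and MYCN none. TERT, the catalytic subunit of telomerase, had 25 and 21 reads, or 0.757 and 0.65 CPM. H3F3A was listed at 0 while its near-identical copies H3F3B and H3F3C had 416 and 407 CPM and 51.7 and 48.5 CPM, so the split of reads among these genes is uncertain.

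Receptor tyrosine kinases pass signals from growth factors into the cell, and 29 of 53 were present (54.7%). That share is near the 53.9% of all rows and below the 62.8% of protein-coding rows. Per length, AXL, the receptor of GAS6, was highest at 389 ± 28.1 TPM and did not overlap MET at 185 ± 16.0 TPM. FGFR1 (159.5 ± 0.897 TPM), EGFR (156 ± 14.9 TPM) and CSF1R (146 ± 2.85 TPM) followed at close levels. Read shares were 510.3 and 551 CPM for AXL, 327 and 321 CPM for FGFR1, 255 and 242 CPM for CSF1R and 160 and 178 CPM for EGFR. The place of EGFR in this order thus depends on the median transcript length used. EPHA5, an ephrin receptor known from neurons, reached 226 and 218 CPM and the collagen receptor DDR2 102 and 109 CPM. Per length DDR2 was the higher of them, at 80.0 ± 5.26 TPM against 63.0 ± 0.528 TPM for EPHA5. Both PDGF receptors were present, with PDGFRB at 29.4 ± 0.476 TPM and PDGFRA at 1.59 ± 0.154 TPM. KIT had 2 and 4 reads, FGFR3 3 and 0, NTRK2 2 and 1, RET 1 and 1, FLT1 3 and 0, and FLT3 and FLT4 none.

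Of 43 cytokine and growth factor receptors, 34 were present (79.1%, against 62.8% of protein-coding rows). IL6ST, the shared signalling chain gp130 of the IL-6 family, had 535 and 543 CPM, and OSMR, which pairs with it, 249 and 267 CPM. IL13RA2, a decoy receptor known as a glioma surface antigen, had 156 and 150.4 CPM and 263 ± 2.38 TPM. TGFBR1 and TGFBR2, the receptors of TGF-beta, had 170.3 and 171 CPM and 145 and 152 CPM. TNFRSF12A, the receptor of TWEAK, had 281 ± 11.1 TPM, and TNFRSF10B, a death receptor of TRAIL, 202 ± 3.61 TPM. CXCR4, the chemokine receptor often studied in glioma, had no reads, as had CNTFR. CXCR2, the receptor of IL8, had 0 and 1 reads and TLR4 3 and 1.

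Notch, Wnt and hedgehog receptors were present in 14 of 19 cases (73.7%, against 62.8% of protein-coding rows). NOTCH2 held most of the reads with 959 and 1087 CPM and 211 ± 22.5 TPM. NOTCH3 (69.1 ± 1.83 TPM) and NOTCH1 (11.3 and 12.8 TPM) were lower in both libraries. FZD6 was the highest Wnt receptor at 40.6 ± 0.441 TPM. PTCH1, the hedgehog receptor, had 9.21 and 11.2 CPM, while SMO, the signal transducer next to it, had 8 and 5 reads, or 0.242 and 0.155 CPM.

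Nuclear receptors are transcription factors switched by hormones and lipids, and 31 of 48 were present (64.6%). That share is near the 62.8% of protein-coding rows. NR1H2, an oxysterol receptor, led per length at 206 ± 2.39 TPM, ahead of NR3C1, the glucocorticoid receptor, at 87.3 ± 4.57 TPM. RORA (81.0 ± 4.23 TPM) and ESRRA (71.8 ± 0.515 TPM) came next. ESR1 had 26 and 19 reads, PGR 2 and 0 and RXRG none.

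Neurotransmitter receptors were mostly low, with 25 of 87 present (28.7%, against 53.9% of all rows and 62.8% of protein-coding rows). The 20 without a read were a share near the 20.6% of all rows and above the 13.9% of protein-coding rows. Per length the highest were the adrenergic receptor gene ADRA1B (70.8 and 69.9 TPM), the adenosine receptor genes ADORA2A (61.5 and 63.9 TPM) and ADORA2B (57.4 and 57.3 TPM) and the ATP-gated channel P2RX4 (49.3 and 49.8 TPM). CHRNA9 had 30.7 and 30.6 CPM and HTR7 28.4 and 29.2 CPM. Glutamate receptor genes were low, with GRIA3 at 5.63 and 6.69 CPM, GRIN2B at 11 and 6 reads and GRIA1 at 3 and 1 reads.

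Per length, TGFBI at 3576 ± 164 TPM and FN1 at 1251 ± 162 TPM stood above all collagens among the structural matrix genes. Collagen genes encode the chains of triple helices, and 24 of 43 were present (55.8%). That share is near the 53.9% of all rows and below the 62.8% of protein-coding rows. They held 0.614% and 0.645% of the counts. The chains of collagen VI led the family, where COL6A2 stood at 919.7 ± 8.89 TPM, COL6A3 at 608 ± 65.8 TPM and COL6A1 at 489 ± 1.04 TPM. Of the fibrillar collagens, COL1A2 had 317 ± 7.87 TPM and its partner COL1A1 56.0 ± 2.04 TPM, a difference far larger than that between the libraries, although both chains form collagen I. COL5A1 and COL5A2 had 156 and 164 CPM and 119.7 and 129.7 CPM. COL3A1, the main chain of reticular fibres, had 25 and 20 reads, and COL2A1 of cartilage had no reads.

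The basement membrane collagens gave a further contrast between partners. COL4A2 was present with 16.9 and 17.8 CPM, while COL4A1 had 8 and 15 reads, or 0.242 and 0.464 CPM. Per length this was 6.02 and 6.51 TPM for COL4A2 and 0.123 and 0.241 TPM for COL4A1. These genes lie head to head and are transcribed in opposite directions from the stretch between their starts. The 126 bases between the RefSeq starts (build GRCh38.p14, chr13:110307158-110307283, plus strand) are shown because the same DNA precedes both genes, with its 20 CG pairs in capitals.
between COL4A1 and COL4A2: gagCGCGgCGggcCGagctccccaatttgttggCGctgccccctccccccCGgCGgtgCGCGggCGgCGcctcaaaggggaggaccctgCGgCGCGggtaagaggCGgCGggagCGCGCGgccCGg
The levels of these genes per length differed far beyond the spread of the libraries. COL4A5 and COL4A6, another head-to-head pair of this family, had 22.3 and 19.7 CPM and 20.7 and 22.1 CPM.

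Of 39 matrix glycoproteins, 32 were present (82.1%, against 62.8% of protein-coding rows). Beside TGFBI, FN1 and TNC, SPARC, a protein that binds collagen, had 869 and 922 CPM, LTBP1, which stores latent TGF-beta, 754 and 809 CPM and FBN1, the microfibril protein fibrillin-1, 631 and 779 CPM. FBN1 was higher in replicate 2. RELN, VTN and TNR had 12 reads or fewer in each library. Of 29 proteoglycans and hyaluronan synthases, 20 were present (69.0%), with SRGN highest per length at 524 ± 26.0 TPM. HAS1 had 198 ± 3.09 TPM, above HAS3 at 35.3 ± 0.392 TPM. The brain proteoglycan NCAN had 0 and 4 reads, ACAN 0 and 1 and HAPLN1 none.

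Integrins, which tie cells to the matrix, were present in 18 of 26 cases (69.2%, against 62.8% of protein-coding rows). ITGB1, the shared beta chain, had 2197 and 2277 CPM and 1409.6 ± 61.0 TPM. Its partners ITGA3 (992 ± 9.68 TPM) and ITGA5 (578 ± 6.68 TPM), which bind laminin and fibronectin, followed, and then ITGB3 (257 ± 6.88 TPM). ITGA6, often used to enrich glioma stem cells, had 5.12 and 5.02 CPM, and ITGB2, the leukocyte chain, had 2 and 2 reads. Of 12 laminin genes, 10 were present (83.3%). LAMC1 had 972 and 1026 CPM, LAMB1 329 and 352 CPM and LAMB2 202 and 206 CPM. Enzymes that process and crosslink collagen were present in 15 of 16 cases (93.75%). LOXL2, a lysyl oxidase, had 1594 and 1513 CPM, PLOD1, a lysyl hydroxylase, 718 and 716 CPM and TGM2, a transglutaminase, 698 and 587 CPM.

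Proteases and inhibitors of the matrix were present in 31 of 38 cases (81.6%, against 62.8% of protein-coding rows). They held 1.72 ± 0.0498% of the counts. The inhibitor TIMP1 (4511 ± 311 TPM) stood beside the gelatinase MMP2 (3013 ± 2.83 TPM) and the stromelysin MMP3 (1487 ± 65.9 TPM). MMP14, the membrane enzyme that activates pro-MMP2, had 806 and 773 CPM. PLAU, urokinase, had 227 and 219 CPM and its receptor PLAUR 229.9 and 209.8 CPM. MMP9, the other gelatinase, had 36 and 26 reads, or 1.09 and 0.805 CPM. MMP13 and PLG, the gene of plasminogen, had no reads.

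Cytokine genes took a share of reads that few of them accounted for. Of 107 genes of this family, which was assembled after the values had been seen, 30 were present (28.0%, against 62.8% of protein-coding rows). Together they held 0.913% and 0.801% of the counts. IL1B, an inflammatory cytokine, had 2778 and 2371 CPM, IL8, a chemokine for neutrophils, 2269 and 2029 CPM and CSF3, the growth factor of granulocytes, 1900.4 and 1592 CPM. All 3 were lower in replicate 2. IL36B, of the IL-1 family, had 626 and 629.6 CPM, LIF 533 and 476 CPM, IL6 199.9 and 156 CPM and CXCL2 167 and 146 CPM. CSF1, the ligand of CSF1R, had 132 and 130.5 CPM. TNF, which induces many of these genes elsewhere, had 17 and 9 reads, and CXCL10 1 and 0.

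Promoter sequence was examined for these genes, because many of them are known targets of NF-kappaB and AP-1. Windows of 250 bases before each start were taken from RefSeq (GRCh38.p14), and 21 of the 30 present cytokine genes were matched. The NF-kappaB consensus, searched on both strands, occurred in 8 of them (38.1%), in 10 of 57 matched family members that were not present (17.5%) and in 5.05% of all 27305 windows. The AP-1 motif TGANTCA, which reads alike on both strands, occurred in 4 of the 21 (19.0%), in 10 of the 57 that were not present (17.5%) and in 6.60% of all windows. TATAAA lying 40 to 20 bases before the start, on the gene's strand, occurred in 4 of the 21 (19.0%), in 13 of the 57 (22.8%) and in 2.55% of all windows. For AP-1 and TATAAA the present and the other members of the family thus had close shares. Only exact matches to GGGRNWYYCC counted for NF-kappaB. Here R is A or G, W is A or T, Y is C or T and N is any base. Stretches that depart from it by a base, such as tggaatttcc in IL8, were not counted. A match is a description of letters and was not tested as a binding site.

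The bases that end right before the start are shown for IL8, for the sister chemokines CXCL1, CXCL2 and CXCL3 and for IL6, with the matched motifs in capitals. The RefSeq windows lie at chr4:73740419-73740568, plus strand (IL8, named CXCL8 in RefSeq), chr4:73869293-73869392, plus strand (CXCL1), chr4:74099196-74099295, minus strand (CXCL2), chr4:74038690-74038789, minus strand (CXCL3) and chr7:22727100-22727199, plus strand (IL6). TFPI2, the gene with the second highest share of reads, is added at chr7:93890754-93890853, minus strand, for its AP-1 match.
IL8: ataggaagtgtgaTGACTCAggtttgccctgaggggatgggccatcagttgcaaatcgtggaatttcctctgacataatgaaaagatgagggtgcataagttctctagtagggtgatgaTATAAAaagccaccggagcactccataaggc
CXCL1: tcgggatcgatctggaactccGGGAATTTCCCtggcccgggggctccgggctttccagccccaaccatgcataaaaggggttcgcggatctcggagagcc
CXCL2: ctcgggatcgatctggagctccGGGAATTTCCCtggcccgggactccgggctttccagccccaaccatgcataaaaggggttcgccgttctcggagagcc
CXCL3: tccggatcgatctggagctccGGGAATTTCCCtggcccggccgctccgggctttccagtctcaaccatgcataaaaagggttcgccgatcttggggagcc
IL6: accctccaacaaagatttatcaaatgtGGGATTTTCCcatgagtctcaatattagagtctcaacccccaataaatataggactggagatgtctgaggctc
TFPI2: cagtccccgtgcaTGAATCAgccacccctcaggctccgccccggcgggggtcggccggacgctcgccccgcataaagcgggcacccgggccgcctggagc
In IL8 the capitals mark an AP-1 motif and TATAAA, in TFPI2 an AP-1 motif, and in the others the NF-kappaB consensus. TFPI2 also had an NF-kappaB match 152 to 143 bases before its start, outside the bases shown. CXCL1, CXCL2 and CXCL3 carry the same capital letters, which match on both strands at overlapping positions and were counted once per gene. These chemokine promoters resemble each other throughout, so their matches are not independent. Their levels were unequal nonetheless, at 77.6 ± 2.39 TPM for CXCL1, 301 ± 23.2 TPM for CXCL2 and 151 ± 13.0 TPM for CXCL3.

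Over the whole annotation, present genes and genes without reads differed in the CG pairs of their promoters. The median was 21 CG pairs in 250 bases for the 9977 matched present genes and 4 for the 2214 matched genes without reads, against 11 over all windows. TATAAA was rarer in present genes (1.63%) than in genes without reads (8.90%). These shares are descriptions, and no test was made of them.

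**Figure D3:**
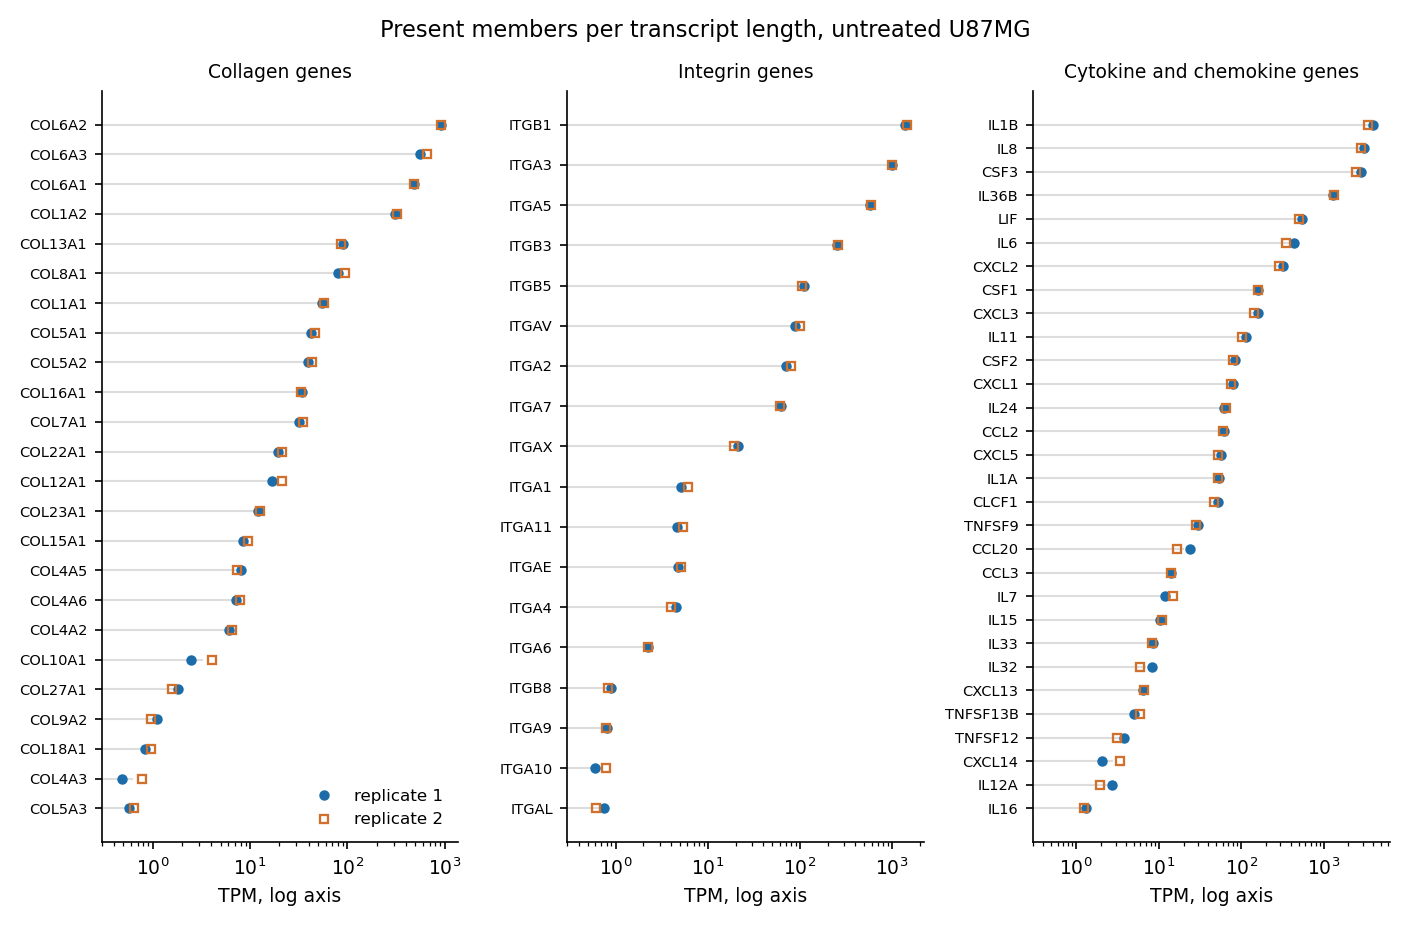
TPM on log axes of the present collagen, integrin, and cytokine and chemokine genes with a transcript length, in replicate 1 (filled circles) and replicate 2 (open squares). Collagen VI genes head the first panel, ITGB1, ITGA3 and ITGA5 the next, and IL1B, IL8 and CSF3 the last, and the libraries lie close together for nearly all members.

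The libraries agreed closely. Across all 23368 rows, Pearson's r of log2(CPM + 1) was 0.9989 and Spearman's rho 0.986, as descriptions across genes, which are not independent replicates. The coefficient of variation between the libraries beyond counting error was 5.38%, from edgeR's common dispersion with 1 residual degree of freedom per gene. Among the 9627 genes of at least 10 CPM on average, 74.7% agreed within 1.1-fold and 98.3% within 1.25-fold. Only 5 of them (0.0519%) differed by more than 1.5-fold. The counts still differed by more than sampling, with a chi-square of 5.78 per degree of freedom. By a two-sided exact binomial test per gene on the reads, 2940 of the 9627 genes (30.5%) had a Benjamini-Hochberg adjusted p under 0.05, which compares these libraries and not conditions. They were therefore not repeat deposits of a single library.

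The genes that differed most were few. PDE3A, a phosphodiesterase that breaks down cyclic nucleotides, had 289 and 159 CPM, a ratio of replicate 2 to replicate 1 of 0.55 (95% exact interval 0.532 to 0.569). CHAC1, a glutathione-degrading enzyme induced by the stress factor ATF4, had 27.1 and 15.4 CPM and a ratio of 0.568 (0.508 to 0.634). CYP2R1, EFCAB11, RAB4A and TRIB3, another ATF4 target, had ratios of 0.70 to 0.71. In the other direction, PTCHD4 (8.39 and 12.9 CPM), POU2F1 (9.99 and 15.2 CPM) and SRBD1 (11.1 and 16.9 CPM) had ratios of 1.54, 1.52 and 1.52, followed by INO80D, RFX8 and POU6F1.

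**Figure D4:**
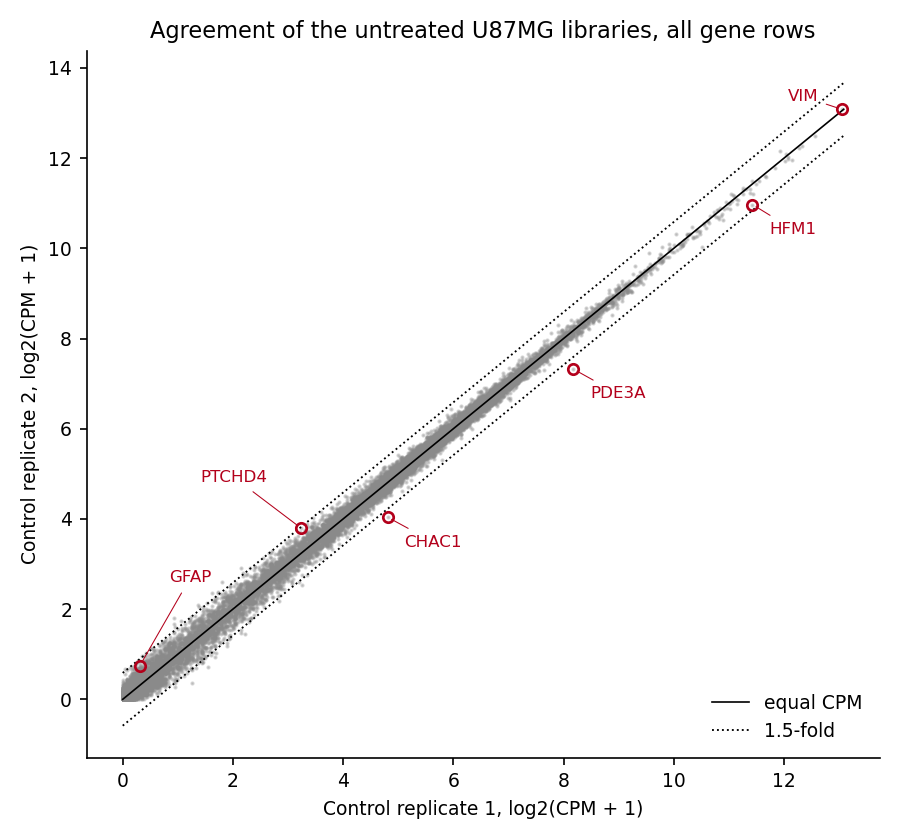
log2(CPM + 1) of every gene row in replicate 1 (x axis) against replicate 2 (y axis), with the line of equal CPM and dotted lines log2(1.5) above and below it. The points follow the line over the whole range; PDE3A, CHAC1, HFM1 and PTCHD4 are circled at its edges, and VIM and GFAP at its ends.

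Smaller differences ran together in groups of genes. Of the 9627 genes, 44.1% were lower in replicate 2, and the median log2 ratio was 0.02. Of 79 ribosomal protein genes of at least 10 CPM, 77 were lower in replicate 2, with a median log2 ratio of -0.13. Of 32 ATF4 targets, a list assembled after the values had been seen, 29 were lower, with a median of -0.17. Of 19 cytokine genes 16 were lower, with a median of -0.14. Collagen genes went the other way, with 13 of 18 higher in replicate 2 and a median of 0.07. No test of these groups was made.

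Transcript length moved with these differences. Among genes with a transcript of up to 1000 bases the median log2 ratio was -0.10 (n = 538), and among those over 8000 bases it was 0.14 (n = 531). Spearman's rho of length and log2 ratio was 0.45 across 9446 genes, as a description. Ribosomal protein and ferritin transcripts are short and those of FN1, FBN1 and COL6A3 long, and the part of length in their differences was not tested.

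**Figure D5:**
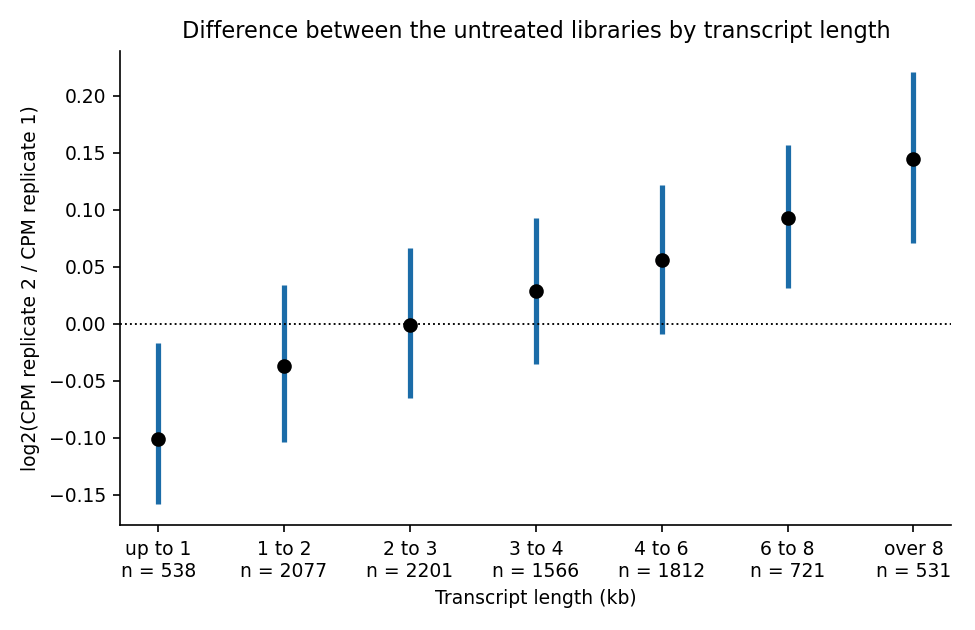
Median (points) and quartiles (bars) of the log2 ratio of CPM in replicate 2 to replicate 1, by class of transcript length in kilobases, for genes of at least 10 CPM. The median climbs from -0.10 in the shortest class to 0.14 in the longest.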

How the data were processed

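The sources used here name no counting program, annotation, strand setting or RNA selection. Per the labels' protocols, RNA was isolated on columns with DNase and made into Illumina libraries. Per the submitters' processing notes, reads were aligned with Bowtie to hg19 (GRCh37). The authors deposited raw read counts per gene symbol, 1 table per library. Without strand, reads of overlapping and antisense genes cannot be told apart, and genes with near-identical copies are uncertain.

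Only the 2 untreated libraries were read, and the 6 treated libraries were not analysed here. CPM was computed over all rows of each library (33025426 and 32298781 counts) and averaged. TPM used the median length of RefSeq-linked transcripts in GENCODE v29 basic (GRCh38, minimum 200 bases). No coordinates were converted between builds: the counts rest on hg19 and the promoter windows on RefSeq's GRCh38.p14. Agreement was described by correlations, ratios with 95% exact intervals, a binomial test per gene with Benjamini-Hochberg adjustment, and edgeR 4.0.16 dispersion after its own filter on low counts. Alternatives used TMM factors, DESeq2 1.42.0 (R 4.3.3), other thresholds, a pseudocount of 0.1 CPM, union-of-exons lengths and each library alone. Other steps used Python 3.11.15, pandas 2.3.3, scipy 1.17.1 and matplotlib 3.10.9. The dispersion and ratio steps were tested on simulated data. The 28 rows whose names had been turned into dates (0.213% and 0.216% of the counts) stay in the totals, but these genes are not named.

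Members and lists were chosen with earlier results of these data known. The rule for named genes took the 30 highest by CPM, the 20 highest by TPM, the 6 widest ratios in each direction, up to 6 highest members of each list and defining markers and receptors below 1 CPM. Other genes were named after their values were seen. The lists of cytokines, glycolysis, intermediate filaments, ferritin, cancer-testis genes, ATF4 targets and cell-cycle inhibitors were assembled after values were seen. Families read from symbol patterns (small nucleolar RNA, microRNA, LINC, ZNF, SOX, IGFBP, galectin, tubulin and thymosin genes) were counted but are given only here: 4 of 368, 9 of 1240, 22 of 135, 336 of 540, 6 of 19, 7 of 7, 4 of 15, 10 of 17 and 3 of 5 were present, in this order. Of 7 melanocyte and Schwann cell genes, 2 were present, among them MITF. Some genes are not reported here, though they stay in the counts.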

Additional observations from a re-analysis of the deposited data

How the results depend on the processing

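No paired analysis was possible because only 1 group was described and no groups were compared. The number of present genes was 12594 and ranged from 10707 (at least 5 CPM in both libraries) to 13278 (at least 0.5 CPM), with 12747 and 12750 when each library was left out in turn. The Pearson correlation moved from 0.9989 to 0.9972 with log2(CPM + 0.1) and to 0.9971 over genes of at least 1 CPM, and was 0.9989 with TMM factors. The coefficient of variation was 8.29% as the median of DESeq2's fitted dispersion. Over 12768 genes of at least 1 CPM, 232 (1.82%) passed 1.5-fold, against 5 of 9627 at the higher minimum, and low counts vary more by sampling. As a share of the TPM total, the 10 highest genes held 7.66%, or 8.75% with union-of-exons lengths, an alternative chosen after seeing the data. Ribosomal protein genes held 6.44% and 5.28% of it, and collagen genes 0.281% and 0.311%. With 1 library left out, shares of counts ranged from 4.92% to 4.997%, 2.47% to 2.71% and 0.614% to 0.645% in this order. The count of present members stayed within 1.5 times for all 55 lists with TMM or DESeq2 scaling, for 52 at 0.5 CPM, 50 at 1 TPM and 41 at 5 CPM. Epithelial genes went from 1 present member to 2 with either library alone. With 2 libraries of unstated origin, a baseline level carries no estimate of the spread between cultures.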

Other observations

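Genes of antigen presentation were present beyond class I. HLA-B had 877 and 829 CPM, and of the class II genes HLA-DRA had 205 and 194 CPM, HLA-DRB1 221 and 209 CPM and HLA-DPA1 115 and 111 CPM. HLA genes are near-identical in parts, so the split of reads among them is uncertain. Class II genes are best known from immune cells, whose defining genes PTPRC, AIF1 and TYROBP had at most 1 read per library. Of 72 cancer-testis genes, a family assembled after the values had been seen, 6 were present (8.33%, against 62.8% of protein-coding rows). MAGEA1 was highest per length at 14.2 and 15.4 TPM. Of 39 HOX genes, 12 were present (30.8%, against 62.8% of protein-coding rows). HOXD8 was highest per length at 29.3 and 33.8 TPM, followed by HOXB2 at 20.2 and 22.8 TPM.

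The genes without reads around CDKN2A formed a run. In the RefSeq order of protein-coding genes, every gene from MLLT3 to DMRTA1, including the interferon alpha cluster, KLHL9, MTAP and CDKN2B, had 6 reads or fewer in each library. FOCAD, listed as KIAA1797, had 6 and 3 reads in that run. SLC24A2 at 10.5 and 10.8 CPM lay before it, and ELAVL2 at 1.27 and 1.33 CPM and TUSC1 at 9.39 and 9.26 CPM after it. Around CDKN2C, the genes ELAVL4, DMRTA2 and C1orf185 had no reads and FAF1, a widely expressed gene, had 8 and 13 reads, between SPATA6 at 36.9 and 41.5 CPM and RNF11 at 129 and 138 CPM. Interferon alpha, ELAVL4 and DMRTA genes are silent in many cell types, so their zeros say little by themselves. The gene number of these loci was not measured here.

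HFM1 and SLCO5A1, an organic anion transporter gene, were both high and both unequal between the libraries. HFM1 had 2755 and 2007 CPM, a ratio of replicate 2 to replicate 1 of 0.729, and SLCO5A1 had 1454 and 1048 CPM and a ratio of 0.721. The ratios of both genes lay among the 10 lowest of 9627.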
